A study of Mus musculus with 8 samples.

Results

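Interferon response genes were followed from a mouse pro-B cell line into the splenic tumors it formed. The set held 32 genes grouped by function: effectors of the type I interferon response, transcription factors that act below the interferon receptors, interferon-induced GTPases, and the immunoproteasome with the peptide transporter gene Tap1. A member was any array probe set whose annotated symbol was, or included, one of these genes. Of the 32 genes, 30 had at least 1 probe set and none was named for Ifi44 or Xaf1. This gave 38 of the 22690 probe sets on the array, which name 12859 genes in all by a single symbol. Of these, 24 probe sets for 22 genes passed the filter on low signal and entered the tests, and 14 did not. Isg15 was represented only by a probe set that the annotation also assigns to Gm9706, so its values may mix transcripts of both genes.

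The parental cells were FL5.12 cells, an interleukin-3-dependent line, stably transfected with Bfl-1DC and p53DD; Bfl-1 is an anti-apoptotic protein of the Bcl-2 family. The tumor group came from the spleens of 3 nude mice that had received these cells by vein and developed leukemia or lymphoma, so both transgenes were shared by all groups and no untransfected cells were compared. The stated purpose was to find expression changes that arose during tumorigenesis. The parental cells and each tumor were each measured on 2 arrays of the type Affymetrix Mouse Genome 430A 2.0, which makes 8. The labels give no age or background strain of the mice, and do not say whether the transfected line was 1 clone, whether separate cultures gave the parental arrays, or whether the tumor cells spent time in culture before extraction. The p-values therefore measure the spread between these samples, which may be technical on the parental side, and the number of arrays limits the precision. Nude mice lack a thymus and so most T cells, but keep natural killer cells, B cells and myeloid cells. In bulk RNA from a spleen, more cells of a type and more RNA per cell cannot be told apart.

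Type I interferons signal through the kinases Jak1 and Tyk2 to a complex of STAT proteins and Irf9, which binds the interferon-stimulated response element (ISRE). Interferon gamma acts through Jak1 and Jak2 to STAT dimers that bind the gamma-activated site (GAS), and it induces Irf1, the immunity-related GTPases and the immunoproteasome. In spleen, myeloid and lymphoid cells both make and answer interferons, and many of these genes keep a low basal level without infection.

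The promoters of the members carry these elements to different degrees. RefSeq windows of 300 bases, from 250 before to 50 after the annotated start (assembly GRCm38.p6), were found for 27 of the 32 genes, with 31 windows in all. They were searched on both strands for the ISRE core, GAAA and GAAA parted by NN (TTTC and TTTC parted by NN on the other strand, where N is any base), and for the GAS core TTCNNNGAA, which is its own reverse complement; matches of the 2 cores may overlap. The ISRE core was present in 14 of the 31 member windows (45.2%), against 3.44% of 32851 promoter windows. The GAS core was present in 8 member windows (25.8%), against 8.3% of all windows. Bst2, Ifitm3, Igtp and Oas1a held both. A match describes letters in a window and does not show that a factor binds there.

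The windows below are those of members with the largest changes, of Ifit1, which lies near Ifit2 on chromosome 19, and of the stretch between the divergent starts of Psmb9 and Tap1. Capitals mark matches to either core, and sequences read 5′ to 3′ on the strand of the gene named (for Psmb9-Tap1, the strand of Tap1). They are Oas1a, chr5:120907526-120907775 (minus strand), Bst2, chr8:71537473-71537722 (minus), Ifit2, chr19:34550444-34550693 (plus), Ifit1, chr19:34640639-34640888 (plus) and Psmb9-Tap1, chr17:34187331-34187555 (plus). For Ifitm3 the matches lay just after the start, and only the 30 bases of chr7:141010715-141010744 (minus) are given.
Oas1a: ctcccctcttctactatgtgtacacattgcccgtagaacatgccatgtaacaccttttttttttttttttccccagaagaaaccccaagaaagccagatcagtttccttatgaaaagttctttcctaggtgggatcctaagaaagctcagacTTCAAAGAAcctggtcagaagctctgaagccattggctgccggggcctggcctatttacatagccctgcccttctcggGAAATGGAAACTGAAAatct
Bst2: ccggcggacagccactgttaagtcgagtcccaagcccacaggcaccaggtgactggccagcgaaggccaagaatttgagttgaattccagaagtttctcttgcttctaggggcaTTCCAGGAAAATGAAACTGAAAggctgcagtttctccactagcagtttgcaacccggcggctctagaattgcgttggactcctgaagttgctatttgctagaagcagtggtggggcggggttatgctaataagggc
Ifit2: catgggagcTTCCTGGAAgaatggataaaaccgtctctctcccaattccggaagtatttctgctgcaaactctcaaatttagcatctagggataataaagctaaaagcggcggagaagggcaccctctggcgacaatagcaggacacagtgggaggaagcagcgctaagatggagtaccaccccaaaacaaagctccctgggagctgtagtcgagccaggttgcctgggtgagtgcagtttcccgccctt
Ifit1: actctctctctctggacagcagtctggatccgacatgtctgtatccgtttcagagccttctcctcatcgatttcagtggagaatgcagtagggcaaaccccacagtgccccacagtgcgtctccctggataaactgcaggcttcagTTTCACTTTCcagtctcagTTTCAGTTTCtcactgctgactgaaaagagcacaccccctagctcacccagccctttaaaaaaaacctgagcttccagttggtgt
Psmb9-Tap1: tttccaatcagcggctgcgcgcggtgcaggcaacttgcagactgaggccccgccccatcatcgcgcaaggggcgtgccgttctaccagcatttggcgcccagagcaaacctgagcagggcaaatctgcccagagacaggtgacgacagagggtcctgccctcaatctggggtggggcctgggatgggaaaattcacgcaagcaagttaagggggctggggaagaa
Ifitm3: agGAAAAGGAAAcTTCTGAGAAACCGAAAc

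In Oas1a, 2 ISRE cores that share 4 bases ended close to the start, with the GAS core further upstream. In Bst2 the GAS core overlapped the first of 2 overlapping ISRE cores, and in Ifitm3 the GAS core lay between 2 ISRE cores and overlapped the second. Ifit1 held 2 separate ISRE cores on the opposite strand. Ifit2 held no ISRE core of these letters in either of its windows and 1 GAS core, and the bases between Psmb9 and Tap1 held neither. No window was given for Usp18, Oas2, Mx1, Mx2 or Iigp1.

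**Figure D1:**
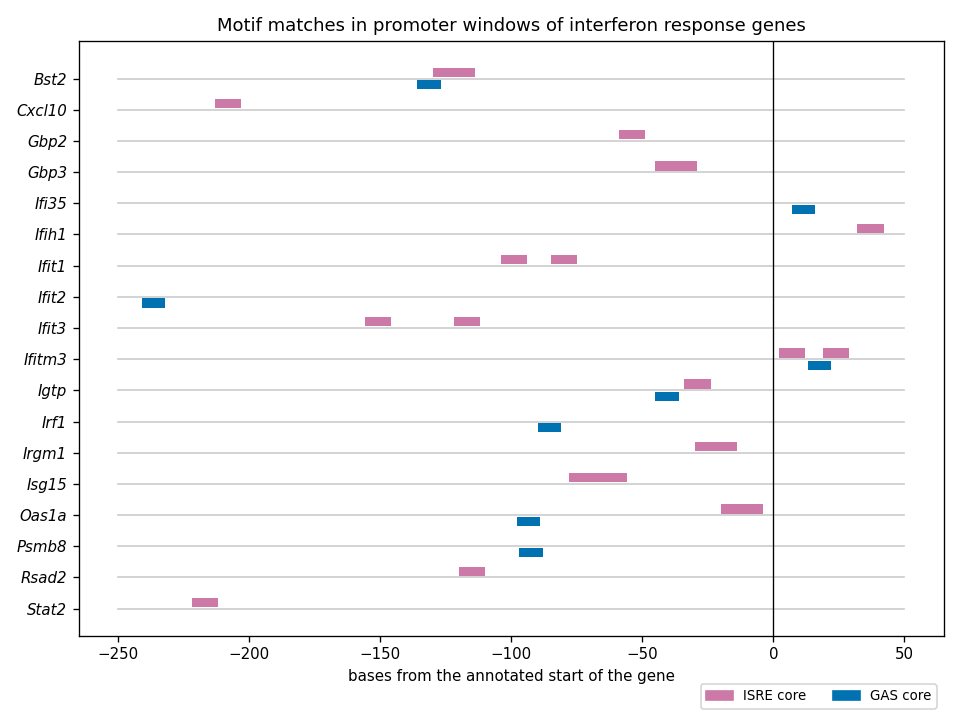
Matches to the ISRE core (pink) and the GAS core (blue) in the promoter windows of the 18 members that held either, drawn by distance in bases from the annotated start (vertical line, 0). The 14 ISRE members differ widely in the distance of the match, from about 220 bases before the start in Stat2 to just after it in Ifitm3 and Ifih1.

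Across the tumors the tested members sat mostly on the higher side of the parental cells, and no member passed the test over all probe sets. Values are the authors' MAS5 signals, a linear brightness per probe set, and changes are differences of log2(signal + 16), tumor minus parental, which understate the change of dim probe sets. The 3 tumors, each the mean of its 2 arrays, were compared with the 2 parental arrays in limma with Benjamini-Hochberg adjustment over the 14897 probe sets tested. Limma called 0 of the 24 member probe sets at an adjusted p of 0.05 (lowest adjusted p 0.118), against 0.698% of all probe sets tested (0.497% higher and 0.201% lower). Before adjustment 5 members were higher and 1 was lower at a p of 0.05, where 8.77% and 6.76% of all tested probe sets were. All 6 were type I effectors: Usp18, Ifitm3, Bst2, Oas2 and Oas1a on the higher side and Ifit2 on the lower. The change was above 0 in 21 of 24 members, against 51.1% of all probe sets tested, and the median change was 0.28 against 0.0079.

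The classes are described by their medians, with no test between them. The 11 tested effectors had a median change of 0.49, the 5 transcription factor probe sets 0.17, the 3 GTPases 0.081 and the 5 immunoproteasome and Tap1 probe sets 0.16. All 3 tumors lay above both parental arrays for 8 members (18.4% of all probe sets tested) and below them for 1 (15.8%). All 6 tumor arrays lay above both parental arrays for Ifitm3, Usp18 and Bst2 (3 members, 9.35% of all) and below them for Ifit2 (1 member, 8.27%). These shares include only members that passed the filter. Of these, 3 (Mx1, Oasl2 and 1 Tap1 probe set) passed through tumor arrays alone, so the filter itself leaned their direction. Another 2, Usp18 and Oas2, had 1 parental array above the filter level and also needed tumor arrays to pass. With no filter the median change of members was 0.188, against 0.0339 of all probe sets.

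**Figure D2:**
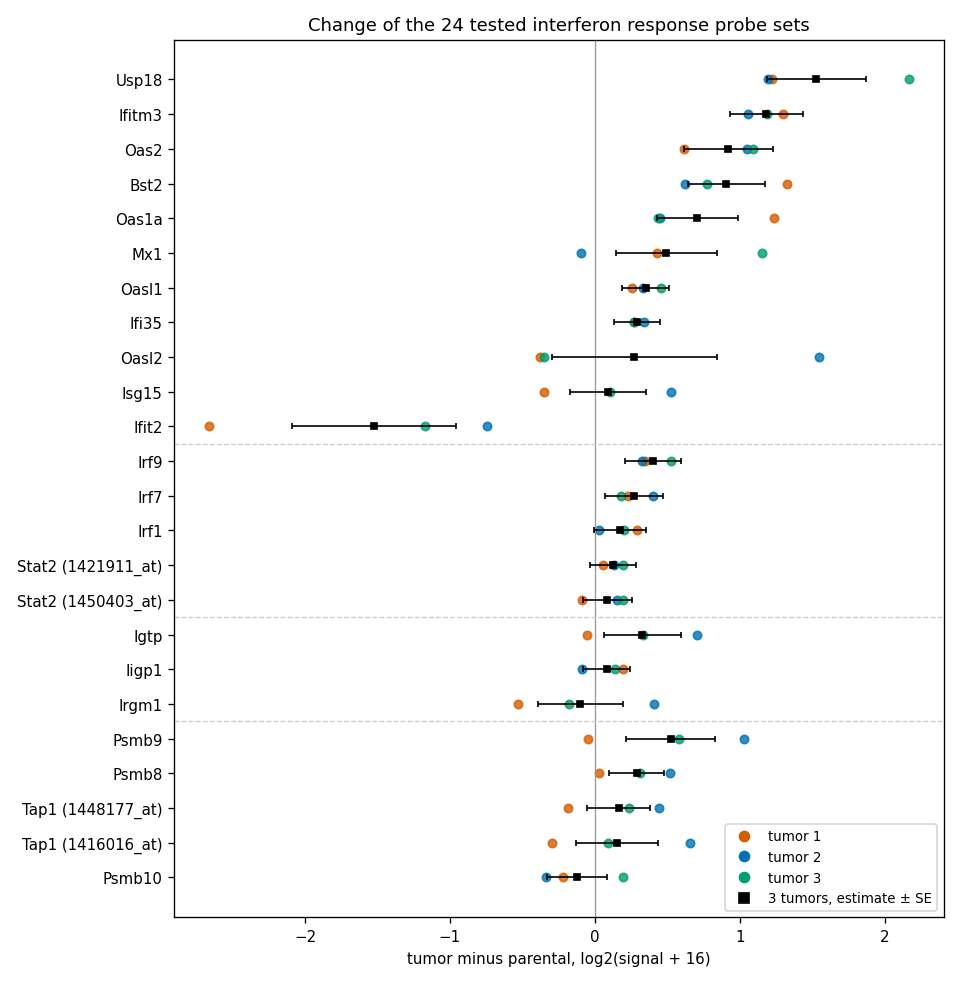
Change of each of the 24 tested member probe sets, tumor minus parental in log2(signal + 16), with 1 point per tumor and a black square with its standard error for the 3 tumors; dashed lines part effectors, transcription factors, GTPases and the immunoproteasome with Tap1. Usp18 (1.53) and Ifitm3 (1.18) stand furthest to the right and Ifit2 (-1.53) furthest to the left, and tumor 1 lies lowest in most of the bottom class.

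Array number moved with these values and is given here once. Each source has an array labelled 1 and an array labelled 2, and those with the same number deviated together. With that number as a block, limma called 6 members: Usp18, Ifitm3, Bst2, Oas1a and Oas2 rose (5 members, 7.4% of all probe sets tested) and Ifit2 fell (1 member, 5.71%). That fit takes the spread between arrays and not between mice, so it leaves out how far mice differ. Its p-values are printed below beside the members whose call they change.

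Ifitm3 encodes a membrane protein that stops viruses from fusing with endosomes. Its signal was 2547 and 1469 on the parental arrays, while tumor 1 gave 4708 and 4876, tumor 2 gave 3750 and 4375, and tumor 3 gave 4279 and 4605. Every tumor array was thus above both parental arrays, and the 3 tumors lay close together while the parental duplicates lay far apart. The means were 2008 ± 763 (SD, n = 2 arrays) and 4432 ± 365 (SD, n = 3 tumors), a change of 1.18 ± 0.25 (SE, 95% interval 0.58 to 1.78, limma adjusted p = 0.118). With the replicate block the adjusted p was 0.0136. The change was 0.73 within array number 1 and 1.64 within array number 2, since the second parental array was 0.79 lower than the first on that scale.

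Usp18 removes Isg15 from proteins and restrains the type I receptor. Its signal was 8.97 and 21.0 on the parental arrays, with 31.7 and 90.0 for tumor 1, 29.3 and 91.0 for tumor 2, and 86.1 and 167 for tumor 3. Each tumor array exceeded both parental arrays, the second array of each source was the higher one, and tumor 3 was highest. The means were 15.0 ± 8.53 (SD, n = 2 arrays) and 82.5 ± 38.1 (SD, n = 3 tumors), a change of 1.53 ± 0.34 (SE, 95% interval 0.71 to 2.35, limma adjusted p = 0.124). The parental level lay near the array's 40th percentile, which ran from 15.6 to 20.6, so its fold is poorly fixed. With the replicate block Usp18 rose (adjusted p = 0.00215). With the second array of each tumor alone, against both parental arrays, it was called at 2.07 (limma adjusted p = 0.0391). With the first array of each tumor alone, again against both parental arrays, the change was 0.99 (limma adjusted p = 0.333). These 2 fits do not match array numbers between the groups. Within array number 1 the change was 1.27 and within array number 2 it was 1.78, with no test.

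Bst2, or tetherin, holds budding virions at the cell surface and is also a marker of plasmacytoid dendritic cells. Its signal was 75.5 and 49.3 on the parental arrays, while tumor 1 gave 261 and 120, tumor 2 gave 118 and 89.5, and tumor 3 gave 117 and 115. The groups did not overlap, and the first array of tumor 1 stood well above all others. The means were 62.4 ± 18.5 (SD, n = 2 arrays) and 136.8 ± 46.8 (SD, n = 3 tumors), a change of 0.91 ± 0.26 (SE, 95% interval 0.28 to 1.54, limma adjusted p = 0.192; 0.0251 with the replicate block). The other dendritic cell markers, with Bst2 left out, summed to 143 and 124 on the parental arrays and to between 93.3 and 208 on the tumor arrays. These ranges overlap. Tcf4 had the highest signal of these markers on every array (90.5 and 84.0 on the parental arrays, 36.1 to 154 on the tumor arrays). The part of dendritic cells in the Bst2 change was not tested. Of these markers, Itgax, Ccr9 and Zbtb46 were below the 40th percentile on all arrays.

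The oligoadenylate synthetases sense double-stranded RNA and activate RNase L. Oas1a had a signal of 85.1 and 109 on the parental arrays, with 205 and 302 for tumor 1, 107 and 175 for tumor 2, and 120 and 154 for tumor 3. Tumor 1 stood above the other tumors, and the first array of tumor 2 fell between the parental arrays. The means were 96.9 ± 16.7 (SD, n = 2 arrays) and 177 ± 66.0 (SD, n = 3 tumors), a change of 0.71 ± 0.28 (SE, 95% interval 0.04 to 1.38, limma adjusted p = 0.298; 0.0138 with the replicate block). Without tumor 1 it was 0.443.

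Oas2 had a signal of 1.57 and 17.9 on the parental arrays, while tumor 1 gave 13.6 and 31.2, tumor 2 gave 21.4 and 52.4, and tumor 3 gave 38.5 and 33.8. All 3 tumor means were above both parental arrays, but the first array of tumor 1 was not, and the first parental value was far under the 40th percentile of its array. The means were 9.75 ± 11.6 (SD, n = 2 arrays) and 31.8 ± 8.14 (SD, n = 3 tumors), a change of 0.92 ± 0.31 (SE, 95% interval 0.19 to 1.65, limma adjusted p = 0.235; 0.0342 with the replicate block). The change was 0.445 without the first parental array and 1.39 without the second.

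Ifit2, an RNA-binding protein that acts on viral translation, went the other way. Its signal was 162 and 80.6 on the parental arrays, with 7.21 and 2.58 for tumor 1, 62.0 and 62.8 for tumor 2, and 42.5 and 41.7 for tumor 3. All tumor arrays lay below both parental arrays, and tumor 1 was near the floor of the array while the duplicates of tumors 2 and 3 were almost equal. The means were 121.5 ± 57.8 (SD, n = 2 arrays) and 36.5 ± 29.2 (SD, n = 3 tumors), a change of -1.53 ± 0.57 (SE, 95% interval -2.88 to -0.17, limma adjusted p = 0.274). Without tumor 1 it was -0.959. With the replicate block Ifit2 fell (adjusted p = 0.0046). The 523 probe sets tested from chromosome 19, where Ifit2 lies, had a median change of -0.36, and 78.8% of them were below 0; their part in this value was not tested. By tumor, the chromosome's median change was -0.35, -0.35 and -0.38. The neighbours of Ifit2 in the family, Ifit1 and Ifit3, stayed at or under a signal of 18.5 on every array and were not tested.

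Each tumor was also set against the parental cells in a limma fit of all 8 arrays, whose spread is that between duplicate arrays. These 3 comparisons share the parental arrays. In tumor 1, Ifitm3 rose by 1.30 ± 0.27 (SE, adjusted p = 0.0458) and Ifit2 fell by 2.66 on the log2 scale (SE 0.29, adjusted p = 0.00439); 1.73% of all tested probe sets were called higher and 1.19% lower there. In tumor 2 no member was called (0.973% and 0.302% of all; lowest adjusted p 0.138 for Ifitm3). In tumor 3, Mx1 was called at 1.15 ± 0.22 (SE, adjusted p = 0.0419), with 1.66% of all called higher, and none fell (0.47%). Mx1 had passed the filter only through both arrays of tumor 3, and with no filter its adjusted p was 0.0636, so the call leans on the group that was tested. The Ifit2 call in tumor 1 was present under all 11 alternatives run for it (adjusted p 0.00139 to 0.018). Its size is not fixed, since tumor 1 lay far under the 40th percentile: the change was -4.41 with a pseudocount of 1 and -1.39 with 64. The Ifitm3 call was lost without the second parental array, where the change was 0.91 (adjusted p = 0.17), and also with a pseudocount of 1, with no filter and with quantile normalization. The replicate block called 4 members higher in tumor 1 (Oas1a, adjusted p = 0.00431; Usp18, 0.0105; Bst2, 0.0151; Ifitm3, 0.0201; 6.89% of all) and 2 lower (Ifit2 and Irgm1; 6.86%).

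Mx1, a dynamin-like GTPase that blocks influenza and related viruses, had a signal of 5.48 and 2.62 on the parental arrays, while tumor 1 gave 6.82 and 15.6, tumor 2 gave 3.64 and 1.77, and tumor 3 gave 25.4 and 31.9. Tumor 3 alone was above the 40th percentile on both of its arrays, and tumor 2 overlapped the parental cells. Over the 3 tumors the change was 0.49 ± 0.35 (SE, limma adjusted p = 0.543), and 0.164 without tumor 3 (0.791 without tumor 2). The call in tumor 3 was lost without either parental array (adjusted p = 0.135 without the first and 0.218 without the second) and under 5 of the other alternatives, among them both other pseudocounts. The replicate block called 4 members higher in tumor 3 (Mx1, Usp18, Ifitm3 and Oas2; 5.22% of all) and 1 lower (Ifit2; 3.87%). The related Mx2 was at or under 3.14 on every array.

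The tumors differed most in Ifit2. The F test over differences among the 3 tumors called Ifit2 alone among members (F-test adjusted p = 0.0411; 1.26% of all probe sets tested), and 7 members had an unadjusted p under 0.05 where 11.7% of all did. With the replicate block the F test called 6 members (5.28% of all): Ifit2, Usp18, Irgm1, Oas1a, Mx1 and Oasl2. Oasl2, a synthetase-like protein, had a signal of 7.48 and 6.12 on the parental arrays, with 1.01 and 2.13 for tumor 1, 25.0 and 91.9 for tumor 2, and 2.94 and 0.94 for tumor 3. Only tumor 2 was above the parental cells, and elsewhere the probe set was near the floor. Its F-test adjusted p was 0.0855, and 0.0358 with the replicate block. Oasl2 had passed the filter only through both arrays of tumor 2, as Mx1 had through tumor 3. The F-test values of both thus lean on the tumor that let them in. Its change over all tumors (0.27 ± 0.57, SE, limma adjusted p = 0.858) turned to -0.36 without tumor 2.

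**Figure D3:**
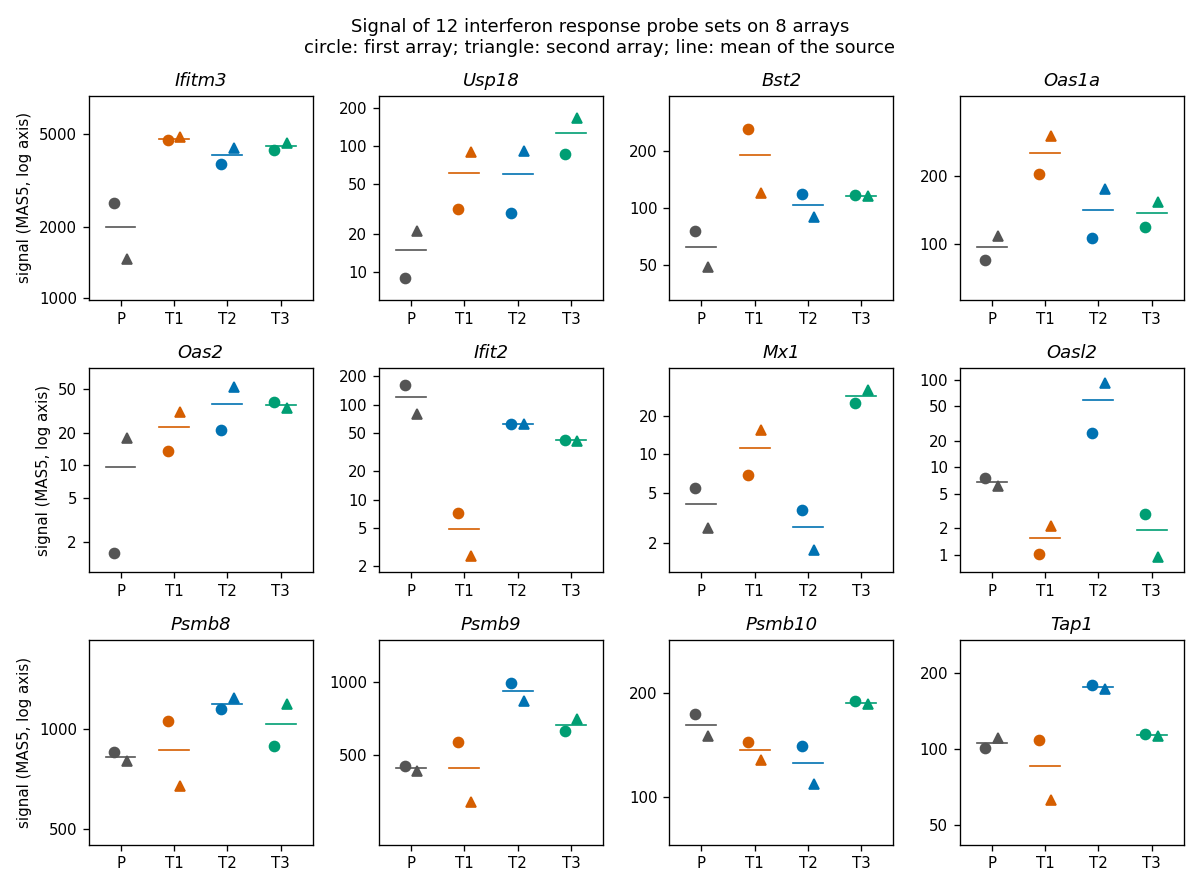
Signal (MAS5, log axis) of 12 member probe sets on the 2 parental arrays (P) and the 2 arrays of each tumor (T1 to T3); circles are first arrays, triangles second arrays and lines the mean of each source. Ifitm3, Usp18 and Bst2 show all tumor arrays above the parental ones, Ifit2 all below, Mx1 is high in tumor 3 and Oasl2 in tumor 2.

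The other 3 tested effectors moved little. Oasl1 (0.35), Ifi35 (0.29) and the Isg15 probe set (0.094) had limma adjusted p-values between 0.362 and 0.9. The effectors Rsad2, Ifih1 and Cxcl10, the chemokine that draws activated T cells, did not pass the filter on low signal. With Ifit1, Ifit3, Mx2, Gbp2 and Gbp3 they make up the 8 genes with no tested probe set, and the highest signal among all untested members was 53.6, for Gbp3 on the second array of tumor 2.

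None of the transcription factors passed the test. Their 5 probe sets, for Irf1, Irf7, Irf9 and Stat2, had changes from 0.086 to 0.40, all above 0. Irf9, the DNA-binding subunit of the type I complex, was chosen for mention after its values were seen. Its signal was 67.9 and 100 on the parental arrays, while tumor 1 gave 82.6 and 144, tumor 2 gave 75.9 and 150, and tumor 3 gave 110 and 145. The second array of each source was the higher one, which left the groups overlapping, and the change was 0.40 ± 0.19 (SE, limma adjusted p = 0.38).

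The GTPases, which attack the vacuoles of intracellular pathogens, gave no common direction. Igtp, Iigp1 and Irgm1 had changes of 0.33, 0.081 and -0.10, with limma adjusted p-values from 0.59 to 0.907. Irgm1, mentioned here because the block changes its call, had a signal of 104 and 143 on the parental arrays, with 65.0 and 97.1 for tumor 1, 145 and 194 for tumor 2, and 88.4 and 128 for tumor 3. Tumor 1 was lowest and tumor 2 highest on both array numbers. With the replicate block Irgm1 fell in tumor 1 (change -0.53, adjusted p = 0.0402) and differed among tumors (F-test adjusted p = 0.0212), against 0.318 without the block.

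The immunoproteasome genes and Tap1, which pumps the resulting peptides into the endoplasmic reticulum for class I loading, were highest in tumor 2 apart from Psmb10. Psmb9, which encodes a catalytic subunit, had a signal of 449 and 429 on the parental arrays, while tumor 1 gave 566 and 318, tumor 2 gave 996 and 840, and tumor 3 gave 626 and 707. Tumor 2 was above all other arrays, tumor 3 was above the parental ones, and the duplicates of tumor 1 fell on either side of them. The means were 439 ± 13.9 (SD, n = 2 arrays) and 675 ± 238 (SD, n = 3 tumors), a change of 0.52 ± 0.31 (SE, 95% interval -0.21 to 1.25, limma adjusted p = 0.457). Without tumor 1 it was 0.807 and without tumor 2 it was 0.269. In tumor 2 the change was 1.03 (adjusted p = 0.157; 0.0498 with the replicate block, which called Psmb9 and Usp18 higher there, 2 members where 3.5% of all were), and in tumor 1 it was -0.044.

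Psmb8, a further catalytic subunit, had a signal of 850 and 800 on the parental arrays, with 1058 and 672 for tumor 1, 1146 and 1237 for tumor 2, and 887 and 1189 for tumor 3. Tumors 2 and 3 were above the parental arrays and tumor 1 straddled them, with a change of 0.29 ± 0.19 (SE, limma adjusted p = 0.513); without tumor 2 the change was 0.172. Tap1 had a signal of 100 and 110 on the parental arrays, while tumor 1 gave 108 and 62.5, tumor 2 gave 179 and 172, and tumor 3 gave 114 and 112. Tumor 2 stood well above the rest, and tumor 3 was just above the parental arrays. The change was 0.15 ± 0.28 (SE, limma adjusted p = 0.84), the F test among tumors gave an unadjusted p of 0.0114 and an adjusted p of 0.224, and without tumor 2 the change was -0.10. Psmb9, Tap1 and Psmb8 are neighbours in that order on chromosome 17 in the RefSeq table, and the bases between Psmb9 and Tap1 are those printed above.

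Psmb10, the subunit encoded on chromosome 8, did not follow this order. Its signal was 174 and 150 on the parental arrays, with 144 and 128 for tumor 1, 141 and 109 for tumor 2, and 189 and 185 for tumor 3. Tumor 2 was lowest and tumor 3 highest, and the change was -0.12 ± 0.21 (SE, limma adjusted p = 0.823) and came to -0.025 without the first parental array. Over the 5 probe sets of the class, the median change was -0.19 in tumor 1, 0.52 in tumor 2 and 0.24 in tumor 3, and 4 of the 5 were highest in tumor 2. The F test called none of them at an adjusted p of 0.05, and 2 had an unadjusted p under 0.05.

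B2m, the invariant chain of class I molecules, was chosen after its values were seen, to set beside these genes. Its signal was 1745 and 1834 on the parental arrays, while tumor 1 gave 1858 and 2327, tumor 2 gave 3811 and 5265, and tumor 3 gave 2608 and 3264. It had the same order of tumors as Psmb9, with changes of 0.22, 1.32 and 0.70, and a change over all tumors of 0.74 ± 0.31 (SE, limma adjusted p = 0.32). Tap2, the partner of Tap1, was lower on average in the tumors (413 ± 115 SD, n = 2 arrays, against 278 ± 17.4 SD, n = 3 tumors), a change of -0.53 ± 0.21 (SE, limma adjusted p = 0.288).

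**Figure D4:**
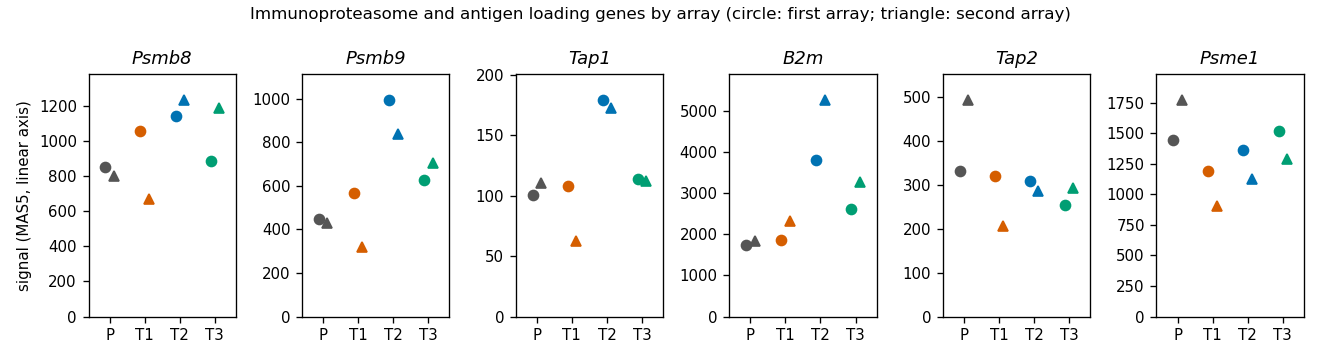
Signal (MAS5, linear axis from 0) of 3 member genes and 3 further genes of antigen processing on the parental arrays (P) and the tumor arrays (T1 to T3); circles are first arrays and triangles second arrays. Psmb9, Tap1 and B2m are highest in tumor 2, while Tap2 and the proteasome activator subunit Psme1 are not; B2m and Psme1 were added after their values were seen.

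Over all members the tumors did not share 1 order. Of the 24 tested probe sets, 5 were highest in tumor 1, 11 in tumor 2 and 8 in tumor 3, and 14, 8 and 2 were lowest there, while over all probe sets tested the counts were 4871, 5388 and 4638 highest and 6012, 3928 and 4957 lowest. The median change of members was 0.13 in tumor 1, 0.43 in tumor 2 and 0.25 in tumor 3. Effectors had medians of 0.43, 0.53 and 0.46. In tumor 1 the GTPases had a median of -0.054 and the immunoproteasome class of -0.19.

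The changes can be read beside the promoters printed above. The 8 tested probe sets of members with the ISRE core had a median change of 0.23, 7 were above 0 and 3 had an unadjusted p under 0.05. The 12 tested probe sets of members with a window and no ISRE core had a median of 0.27, 10 were above 0 and 1 had such a p. For the GAS core, the 8 tested probe sets with it had a median of 0.31, 7 above 0 and 4 with such a p, and the 12 without it had a median of 0.16, 10 above 0 and 0 with such a p. Of the 14 members with the ISRE core, 7 had no tested probe set, Ifit1 with its 2 cores among them. These are descriptions of small sets, and no test was made.

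Other genes of the pathway were taken from lists, whose counts stand beside 51.1% of all probe sets tested above 0, 8.77% higher and 6.76% lower before adjustment, and 0.698% called. In these lists Zbp1, Socs1 and Rtp4 passed the filter through tumor arrays alone and Ifnab through the parental arrays alone. The filter itself leaned the direction of these genes. The ligands gave little signal. Of 19 interferon ligand and inducer genes listed, 13 were on the array and 3 were tested; Ifng and 7 others were below the 40th percentile on all arrays. None passed the test. Ifnab had a change of -0.43 and Ifnz of -0.70 (limma adjusted p 0.286 and 0.349), and the single gene above 0 was Ifnb1. A low array signal does not show that a ligand was absent.

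Receptors and signal transducers were measured better. None of the 12 tested passed the test, 9 were above 0, and 2 were higher and 1 was lower before adjustment (median change 0.20). Jak1, the kinase common to both receptors, had a signal of 705 and 629 on the parental arrays, with 1266 and 1210 for tumor 1, 1228 and 1136 for tumor 2, and 1042 and 1222 for tumor 3. The groups did not overlap and the tumors lay close together, with a change of 0.81 ± 0.15 (SE, limma adjusted p = 0.0958). Tyk2 followed with 108 ± 0.33 (SD, n = 2 arrays) against 166 ± 5.37 (SD, n = 3 tumors), a change of 0.55 ± 0.15 (SE, limma adjusted p = 0.165). Ifnar1 and Ifnar2, the type I receptor chains, had changes of 0.35 and 0.31, and Ifngr1 and Ifngr2 of 0.12 and 0.21.

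Among the feedback inhibitors, Socs3 was the 1 gene of the pathway lists that passed the test. Socs3 blocks JAK signalling from several cytokine receptors. Its signal was 128 and 123 on the parental arrays, while tumor 1 gave 78.1 and 19.6, tumor 2 gave 44.5 and 41.1, and tumor 3 gave 73.9 and 36.9. All tumor arrays were below both parental arrays, and Socs3 fell by 1.20 on the log2 scale (SE 0.16, limma adjusted p = 0.0361). The call was lost without any 1 parental array or tumor (adjusted p 0.0753 to 0.154; change -1.28 to -1.15). It was also lost with pseudocounts of 1 (0.0507) and 64 (0.0536), with no filter (0.066), with a mean per source over all 8 arrays (0.128) and with the first array of each tumor alone (change -0.82, adjusted p = 0.214). Of the other 9 tested inhibitors none passed the test, and Sh2b3 had a change of 0.47 (limma adjusted p = 0.265). The growth protocol lists medium with WEHI-3B supernatant as a source of interleukin-3 for every sample; whether the tumor cells had that medium is not settled.

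The nucleic acid sensors and their adaptors start interferon production. None of the 11 tested passed the test, 8 were above 0 and 3 were higher before adjustment. Zbp1 went from 4.52 ± 1.27 (SD, n = 2 arrays) to 17.1 ± 2.91 (SD, n = 3 tumors), both near or under the 40th percentile, a change of 0.66 ± 0.16 (SE, limma adjusted p = 0.137). Zbp1, counted among the 3, passed the filter through tumor arrays alone, so the filter itself leaned its direction. Myd88, the adaptor of most Toll-like receptors, had a change of 0.49 ± 0.16 (SE, limma adjusted p = 0.235).

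Of 51 further interferon-induced genes, 36 were on the array and 27 were tested. None passed the test, 21 were above 0 and 3 were higher before adjustment, with a median change of 0.20 and medians of 0.062, 0.45 and 0.24 in the 3 tumors. Ifi47, a GTPase of the same family as Igtp, had a signal of 31.1 and 51.9 on the parental arrays, with 146 and 125 for tumor 1, 125 and 167 for tumor 2, and 80.0 and 122 for tumor 3. No tumor array reached down to the parental ones, and the change was 1.32 ± 0.23 (SE, limma adjusted p = 0.0853). Isg20, a nuclease that degrades viral RNA, went from 57.6 ± 26.0 (SD, n = 2 arrays) to 182 ± 80.5 (SD, n = 3 tumors), a change of 1.36 ± 0.40 (SE, limma adjusted p = 0.198). Among 11 tested genes of the constitutive proteasome and antigen loading, none passed the test and 8 were above 0, with Calr at 0.69 ± 0.15 (SE, limma adjusted p = 0.12).

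Markers of some other spleen cells moved with these groups, though the ranges of the macrophage and monocyte list overlapped. On parental array 2, where that list summed to 919, Csf1r was 555 (11.5 on parental array 1). Csf1r was the tested gene of that list below 0 (change -0.65, limma adjusted p = 0.828). Summed signals ran from 349.95 to 846 on parental and 4195 to 10623 on tumor arrays for the neutrophil list (12 of 12 tested above 0, 2 called higher), 38.1 to 44.1 and 3642 to 8221 for the eosinophil list (4 of 4, 2 called), 209 to 919 and 841 to 3264 for the macrophage and monocyte list (7 of 8, 3 called) and 98.2 to 167 and 868 to 2593 for the T cell list (2 of 3, 1 called). All 4 tested eosinophil genes passed the filter through tumor arrays alone, so the filter itself leaned that count. The same held for Cd177, S100a9, Lcn2, Ltf, S100a8 and Elane (neutrophil), Ccr2, Cd14, Itgam and Fcgr1 (macrophage) and Cd3d (T cell). Camp of the neutrophil list, Ccr3 and Il5ra of the eosinophil list, C1qa, C1qc, Marco and Ms4a7 of the macrophage list and Cd3e, Cd4, Cd247 and Cd8b1 of the T cell list were below the 40th percentile on all arrays. The natural killer list overlapped (653 to 3849 and 127 to 2162), with Ncr1, Klrk1, Gzma and Klra8 below that level throughout. Most of its parental sum was Gzmb (576 and 3808 on the parental arrays; change -3.09, limma adjusted p = 0.345). Nkg7, its other tested gene, was above both parental arrays on every tumor array (change 1.10, limma adjusted p = 0.156). Overlap was also seen for the mature B cell and class II list (336 to 720 and 221 to 628), the erythroid list (1540 to 2375 and 649.66 to 2344) and the endothelial and stromal list (259.65 to 307 and 253 to 429).

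The pro-B list, the labelled cell type, ran from 243 to 251 on parental and 472 to 643 on tumor arrays (3 of 4 tested above 0, 1 called higher). The called gene was Cd79b (change 1.31, limma adjusted p = 0.0414). Igll1, another of the 3 above 0, passed the filter through tumor arrays alone. Cd79a and Cd79b were above the 40th percentile on every array, while Rag1, Rag2, Ebf1, Dntt, Vpreb1 and Blnk were below the 40th percentile on all of them, so the label rests on few of its usual markers here. The part of these cell types in the changes of Usp18, Ifitm3, Bst2, the synthetases, Psmb9 and B2m was not tested. Median signals of the arrays lay between 32.4 and 37.9, the 3′ to 5′ ratio of Actb between 1.06 and 1.25, and Actb itself had changes of 0.17 and 0.21 on its 2 probe sets (limma adjusted p 0.694 and 0.623).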

How the data were processed

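Parental cells and splenic tumors from 3 mice were measured on 8 Affymetrix arrays, 2 for each source. The authors deposited linear intensities, 1 MAS5 signal for each probe set, per the submitters' processing notes; the version is not given in the sources used here. Each array's mean, trimmed at both ends (2% at each), was 150.06, so signals are relative to a common total and a large rise of some RNAs lowers the others. Of 22690 probe sets, 20393 had 1 symbol in the platform annotation and 691 had several. A further 1555 had none, and the rest were control probe sets without a symbol. In all, 20364 matched RefSeq. The 64 control probe sets were not tested.

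The analysis used log2(signal + 16), with no further normalization. A probe set was tested where its signal exceeded its array's 40th percentile (15.6 to 20.6) on at least 2 of 8 arrays, which left 14897. Limma 3.58.1 in R 4.3.3 gave two-sided moderated statistics with Benjamini-Hochberg adjustment, called at 0.05. The main comparison used 3 tumor means against 2 parental arrays; single tumors and the F test used all 8 arrays with a mean per source. On simulated data of 14897 probe sets, tumors against parental cells recovered 54% of changes of 1 and 99% of changes of 2 (log2). In the same run 15 unchanged probe sets were also called. The simulated noise was independent and held no shared shift by array number. Members, classes and lists were chosen with earlier results of these data known. Values on all arrays are given for the 8 largest changes, the 5 lowest p-values, the 4 lowest F-test p-values, the 5 brightest member probe sets, those called in a single tumor, and any member whose tested probe sets had changes of opposite sign (there was none); 2 genes of each pathway list with the lowest p are named, by the brightest tested probe set with 1 symbol. Gapdh was not reported because its tested probe sets carried several symbols.

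Arrays with the same number deviated alike from the means of their sources (correlation 0.434 to 0.594 in all 6 pairs of sources), so the numbers given in the labels pair the arrays, and fits with the number as a block were run. Also run were pseudocounts of 1 and 64, no filter or the 60th percentile, quantile normalization, median centring, 1 probe set per gene and a trended robust prior. Further fits used the first or second arrays of the tumors only, against both parental arrays. Changes were also taken within each number, and fits were run leaving out each parental array or tumor. Where 1 parental array is left, it is taken to vary as the tumors do. A main comparison on all 8 arrays was added after seeing the data. Promoters came from RefSeq (GRCm38.p6); coordinates of genes on the array are not given, since the file names no build.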

Additional observations from a re-analysis of the deposited data

Results flagged for a closer look

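Ifit2 was noted because the 3 tumors differed from each other by a test of that difference (limma F test over all 8 arrays, adjusted p = 0.0411). The changes against the parental cells were -2.66 in tumor 1, -0.74 in tumor 2 and -1.17 in tumor 3, and all 6 tumor arrays lay below both parental arrays. The F-test call was lost with pseudocounts of 1 (adjusted p = 0.0558) and 64 (0.175) and with no filter (0.088), and the adjusted p over its alternatives ran from 0.0116 to 0.175. The spread in this test is that between duplicate arrays. No test for an array that stands apart was possible within groups of this size.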

How the results depend on the processing

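Members called over the 3 tumors (main value 0) numbered 6 with the replicate block, 2 with a mean per source over all 8 arrays, an alternative chosen after seeing the data, and 1 with second arrays only; leaving out a parental array or tumor gave 0 each time. Members with an unadjusted p under 0.05 (main value 6) numbered 10 with the replicate block and 3 to 7 when 1 parental array or tumor was left out, the lowest without the first parental array. For tumor 1 (main value 2), 1 member was called with a pseudocount of 1, no filter or quantile normalization, 6 with the replicate block, and 1 to 2 without a parental array. For tumor 2 (main value 0) the replicate block called 2. For tumor 3 (main value 1), 0 were called with pseudocounts of 1 and 64, no filter, the 60th percentile, quantile normalization or the trended robust prior, and 5 with the replicate block; without the first parental array the member called was Ifitm3 and without the second Ifit2, not Mx1. At the 60th percentile Mx1 did not pass the filter and so was not tested. The F test (main value 1) called 0 with pseudocounts of 1 and 64 or no filter, and 6 with the replicate block. The block changed no call of a named member other than those given.

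The median change of members (0.281) stayed above 0 in all alternatives, from 0.168 without the first parental array to 0.386 without tumor 1. Directions turned for Oasl2 with a pseudocount of 1 (-0.154) and, when 1 tumor was left out, ran from -0.362 without tumor 2 to 0.599 without tumor 1; for Tap1 the same range was -0.103 to 0.376. The cause was not tested. Probe sets near the array's 40th percentile (Mx1, Oasl2, Oas2, Usp18 in parental cells, Ifit2 in tumor 1) have changes set largely by the pseudocount. With 2 parental arrays, changes near 1 were often missed in the simulated data.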
